A study of Bos taurus with 48 samples.

Results

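The 5 subunits of the muscle acetylcholine receptor, CHRNA1, CHRNB1, CHRND, CHRNE and CHRNG, were followed in bovine Longissimus thoracis et lumborum (LTL) muscle from 60 days of gestation to 30 months of age, and in cattle on a weight loss or a weight growth diet. The subunits were taken by name: a non-control probe was a member when its gene name, or the symbol in its description, equalled one of the 5 symbols. Each of the 5 had 1 probe, and all 5 were among the 13945 genes that passed the detection filter and entered the tests. The gamma subunit was far higher before birth and the epsilon subunit after it, the delta subunit fell together with gamma, and the alpha 1 and beta 1 subunits changed far less over birth. In the diet experiment the delta subunit was higher, and epsilon and gamma were lower, on the weight loss than on the weight growth diet at the second of 3 sampling times. From the first to the second time gamma rose by 1.07 on the log2 scale on the growth diet and by 0.08 on the loss diet, from levels near background.

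The acetylcholine receptor of the muscle endplate is the channel through which the motor nerve excites the muscle fibre. It is a pentamer of alpha 1 subunits, which carry most of the acetylcholine binding site, with the structural beta 1 subunit and the delta subunit. The last subunit is gamma in fetal muscle and epsilon in adult muscle. In innervated muscle the receptor genes are transcribed mainly by the nuclei under the nerve terminal, whereas in fetal or denervated muscle they are transcribed along the whole fibre.

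The probes that gave these measurements are shown so that it can be seen that each subunit was read through a different sequence, since the subunits are related genes. Each probe had 60 bases and was printed as 2 spots. The first 30 bases, as the array files give them, were as follows.
CHRNA1: ggatttcaatctaggtctccttggcattcc
CHRNB1: tacacactgatatgttttgtttggctcatg
CHRND: ggcagagacagctgaggtccaggattagag
CHRNE: ccaggaggatatttgaaaaacaccttgcta
CHRNG: atcagctgttttctgctcctgaggtcatga
Over the full length, the longest run of bases shared by any pair of these probes was 8, between CHRND and CHRNG. The probes had a GC content of 53.3% (CHRNA1), 35.0% (CHRNB1), 55.0% (CHRND), 41.7% (CHRNE) and 45.0% (CHRNG). In the RefSeq gene table CHRND and CHRNG are neighbouring genes, and CHRNB1 and CHRNE are not neighbours of another subunit gene. A probe's brightness depends on its sequence, so levels are compared below between samples for the same probe and not between subunits.

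The 48 arrays carried 2 samples each, and every array paired the groups that differed in cross or in diet at 1 sampling time. The developmental samples came from Piedmontese × Hereford and Wagyu × Hereford crosses, all without a diet treatment in the labels. There was 1 fetus per cross at 60 days of gestation, 3 Piedmontese-cross and 2 Wagyu-cross fetuses at 135 days, 2 and 3 at 195 days, 3 and 3 at birth, 4 and 4 at 3, 7, 20, 25 and 30 months, and 4 and 2 at 12 months. The post-natal samples came from 9 animals that were sampled repeatedly. The diet samples came from Belmont Red cattle, with 4 animals on each diet at time 0, 3 on the weight loss and 4 on the weight growth diet at time 1, and 2 on each at time 2. The labels give these sampling times without days, and the study's methods describe adult animals under nutritional deprivation and re-alimentation. The 60-day values rest on a single fetus per cross, hybridised on 3 arrays. Values below are log2 normalized intensities, 1 per animal and time point, animals are the replicates, and the number of arrays and animals limits the precision.

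By array, 49.9% to 72.8% of the non-control spots passed the scanner's test of signal over background in Cy3, and 55.1% to 76.4% in Cy5. The samples from 60 days to birth shared 3 slides, those from 3 to 20 months another 4, those at 25 and 30 months another 2, and each diet time had a slide of its own. Steps within these sets were therefore measured within slides, whereas the steps from birth to 3 months and from 20 to 25 months, and changes over diet time within a diet, cannot be told apart from slides. The tissue label was checked against 7 measured muscle fibre markers, whose mean log2 level was 12.00 to 12.60 at 60 days and 14.90 to 15.34 at birth.

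One animal stood apart before any result. A Piedmontese-cross fetus at 135 days, hybridised on the second array of that age, had ACTA1, the skeletal muscle actin, at 10.02, against 16.73 to 17.58 in the other 4 fetuses of that age. All 7 muscle fibre markers and all 3 embryonic muscle markers were below the range of the other 4, and all 4 adipocyte markers were above it, among them FABP4 at 16.56 against 9.03 to 11.63. Its correlation with the other 4 over all genes was 0.920 to 0.927, while those 4 correlated with each other at 0.988 to 0.996. Its receptor levels were 9.01 for CHRNA1, 8.65 for CHRNB1, 7.88 for CHRND and 10.66 for CHRNG, all below the other 4 fetuses, and 8.15 for CHRNE, within their range of 8.01 to 8.29. Results that include it are given with and without it below.

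CHRNG, which encodes the gamma subunit of the fetal receptor, had the widest range of the members over development, 407-fold between the highest and the lowest animal. Its log2 levels were 14.81 and 15.89 in the 60-day fetuses. At 135 days they were 15.50, 15.56, 15.83 and 15.42, and 10.66 in the animal that stood apart. At 195 days they were 14.49, 14.10, 14.42, 13.49 and 13.86. Every fetus was thus above every later sample, for the highest animal at birth was at 9.64. At birth the lowest, median and highest of 6 animals were 8.52, 9.05 and 9.64, and over the 9 post-natal animals, each averaged over its ages, they were 7.67, 8.10 and 8.32. With the post-natal animals averaged over their ages, the stages did not overlap. Single ages did overlap birth, as at 3 months, where the range was 8.05 to 9.34. CHRNG was well above background in 47 of the 48 post-natal channels.

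From the prenatal to the post-natal animals CHRNG fell by 6.40 on the log2 scale (SE 0.46, limma, adjusted p = 4.51e-11), an 84.6-fold lower level. It was 1 of 3 members that passed the threshold in this comparison, in which 75.9% of all genes tested passed it. Without the animal that stood apart the change was -6.75 and 4 of the 5 members passed. In these whole-muscle samples fewer cells of a type and less RNA per cell cannot be told apart. Prenatal and post-natal samples lay on different slides, so slides and stages cannot be told apart in this comparison.

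Most of this fall lay between 195 days and birth, a step measured within slides. There CHRNG was lower by a log2 difference of -5.03 (SE 0.42, limma, adjusted p = 6.95e-16), or 32.7-fold, and the change within each of the 3 shared slides was between -5.32 and -4.93. At this step 4 of the 5 members passed, against 68.3% of all genes. Cell markers moved over the same step. The 3 embryonic muscle markers had a mean level of 16.46 to 17.04 at 195 days and 9.60 to 11.57 at birth, and the 5 fibroblast markers went from 12.91 to 13.51 down to 10.86 to 11.73. The 7 muscle fibre markers had 14.30 to 14.64 and then 14.90 to 15.34, and the 6 Schwann cell and nerve markers 9.34 to 9.69 and then 9.26 to 9.67. The 5 endothelial markers went from 11.50 to 11.79 down to 10.31 to 10.67, the 5 blood and immune markers from 10.40 to 10.83 down to 8.26 to 8.63, and the 4 adipocyte markers had 7.21 to 8.42 and then 6.98 to 8.44. The part of these changes in the receptor result was not tested.

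Earlier and later steps of CHRNG were smaller. Between 60 and 135 days it did not pass the threshold (-0.74, adjusted p = 0.471), and without the animal that stood apart the value was 0.24 (adjusted p = 0.697). Between 135 and 195 days the value was -0.57 (adjusted p = 0.372), and without that animal CHRNG fell by 1.54 (adjusted p = 2.26e-06). From birth to 3 months the difference was -0.04 (adjusted p = 0.940).

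After 3 months CHRNG fell again. At 3 months the lowest, median and highest of 8 animals were 8.05, 9.09 and 9.34, and at 7 months 7.67, 7.89 and 8.69. All 7 animals sampled at both ages were lower at 7 months, and the fall was 0.94 on the log2 scale (limma, adjusted p = 0.0149). CHRNG was the single member past the threshold at this step, against 20.0% of all genes. The call was lost, with adjusted p from 0.0518 to 0.0543, without the second array at 3 months (-0.86), the third array at 3 months (-0.87) or the second array at 7 months (-0.86). It was also lost under median centring (adjusted p = 0.343) and without the animal as a block (adjusted p = 0.0502). From 12 to 20 months all 6 animals measured at both ages were higher, by 0.03 to 0.99, and the mean rise of 0.71 did not pass (adjusted p = 0.112). It passed without the animal that stood apart (adjusted p = 0.00225), where the SE was 0.17 in place of 0.31. The change from 25 to 30 months was -0.48 (adjusted p = 0.235), and it likewise passed without that animal (adjusted p = 0.0201).

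CHRNE, which encodes the epsilon subunit of the adult receptor, ran the other way. Its log2 levels were 8.98 and 8.23 at 60 days, and 8.01, 8.15, 8.24, 8.15 and 8.29 at 135 days. At 195 days they were 8.62, 8.99, 9.27, 9.23 and 8.64. The lowest, median and highest were 10.10, 10.59 and 10.83 at birth and 10.91, 11.47 and 12.35 over the 9 post-natal animals. With each post-natal animal averaged over its ages, no stage overlapped another. Every fetus was below every newborn, and every newborn was below every post-natal mean. Single ages did overlap birth, as at 3 months, where the range was 10.47 to 11.66.

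From the prenatal to the post-natal animals CHRNE rose by 3.00 (SE 0.20, limma, adjusted p = 1e-11), or 7.98-fold, and by 2.96 without the animal that stood apart. The first rise was at 135 to 195 days, of 0.74 (adjusted p = 0.0229), where 2 members passed against 26.2% of all genes. That call was lost without the first array at 135 days (0.67, adjusted p = 0.109), without the third array at 195 days (0.67, adjusted p = 0.0629) and under median centring (adjusted p = 0.457). The largest rise between neighbouring time points was from 195 days to birth, 1.62 (SE 0.24, adjusted p = 3.99e-08), with 1.55 to 1.79 within the 3 slides.

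CHRNE went on changing in adult muscle. Its levels at 12 months had a lowest, median and highest of 10.55, 10.74 and 12.25, and at 20 months of 11.09, 12.05 and 12.67. All 6 animals sampled at both ages were higher at 20 months, by 0.31 to 1.23, and the rise was 0.91 (limma, adjusted p = 0.00021). At this step 2 members passed, against 16.2% of all genes, and the rise was 0.73 to 1.04 within the 4 slides. Under median centring it was 1.28 and no longer passed (adjusted p = 0.125). Over 12, 20, 25 and 30 months the adipocyte markers had median levels of 8.53, 10.07, 11.30 and 11.06, and the blood and immune markers 8.82, 9.57, 10.32 and 8.73. Their part in the CHRNE values was not tested.

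The later changes of CHRNE depended on the scaling. From 20 to 25 months CHRNE rose by 0.54 (adjusted p = 0.0183) in 7 of 8 animals, and from 25 to 30 months it fell by 0.52 (adjusted p = 0.0157) in 7 of 8 animals. It was the single member past the threshold at each step, against 14.2% and 23.7% of all genes. With every channel centred on its median the signs turned, to -0.18 (adjusted p = 0.652) and 0.53 (adjusted p = 0.134), and the median of all genes shifted by -0.315 and 0.526 at these steps. The first of these calls was also lost without array 1 (0.41) or 3 (0.54) at 25 months, without array 4 at 20 months (0.51), and without the animal as a block (adjusted p = 0.127). The other was lost without the first array at 25 months (-0.38) or the third at 30 months (-0.37), without the animal as a block (adjusted p = 0.106) and with the slide as a block (adjusted p = 0.0575).

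**Figure D1:**
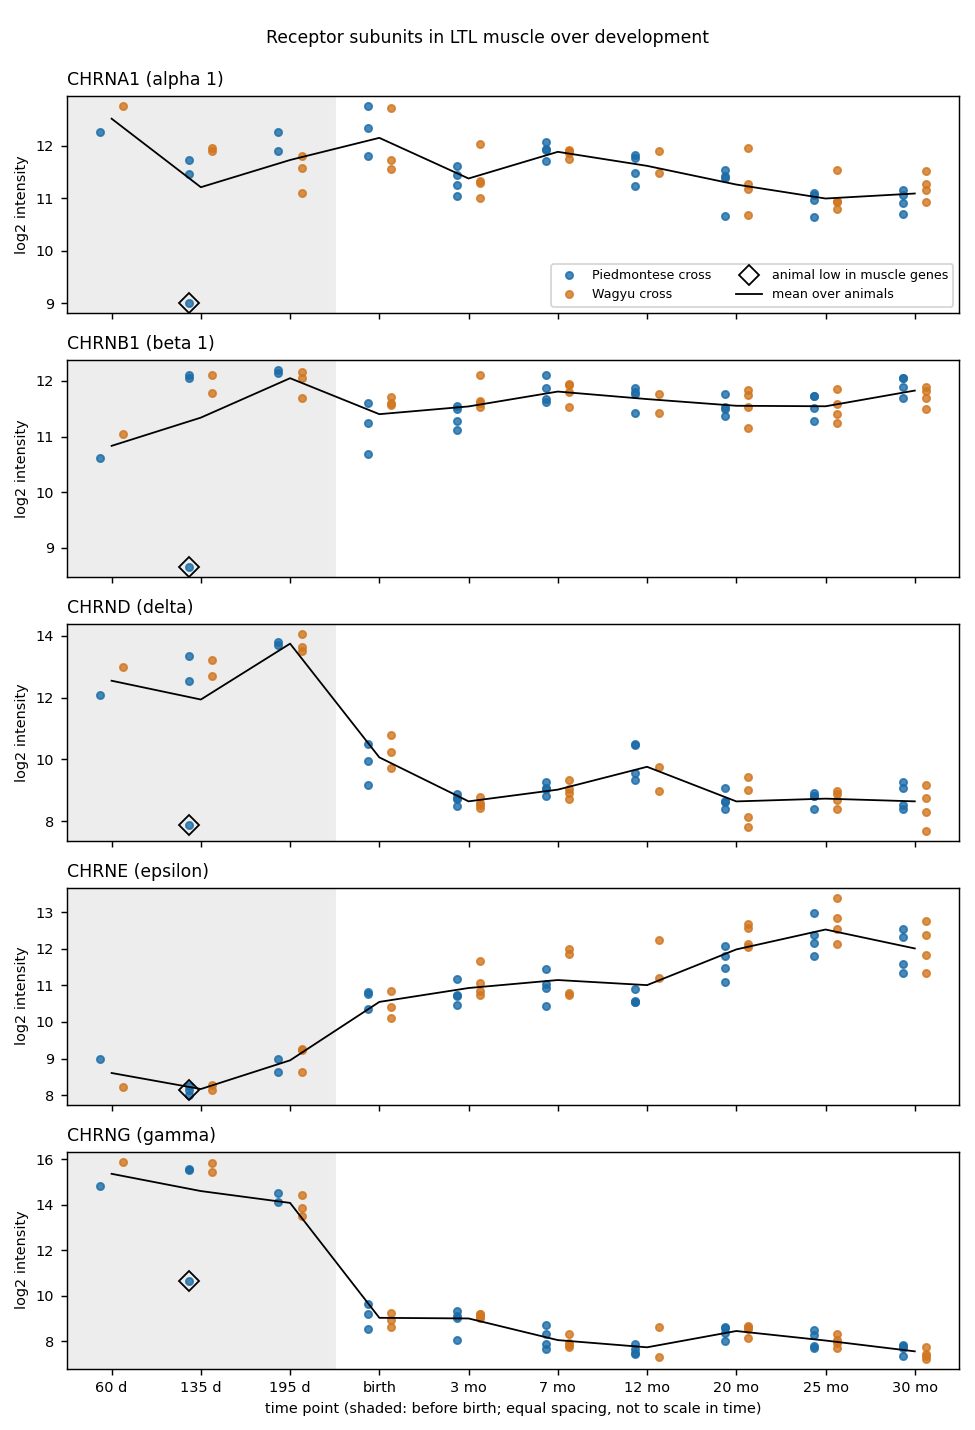
Log2 normalized intensity of each subunit (y axes) at the 10 developmental time points (x axis, equal spacing), 1 point per animal, coloured by cross, with a line through the means over animals and a diamond around the 135-day animal that stood apart. CHRNG and CHRND drop between 195 days and birth while CHRNE rises by 1.62, and for CHRNA1 and CHRNB1 the animals' ranges overlap from each time point to the next in the order of levels.

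The difference between epsilon and gamma puts both changes on 1 scale. Its level depends on the probes, so only its change between samples is read. CHRNE minus CHRNG had a mean of -5.94 ± 1.60 (SD, n = 12) in the prenatal animals, 1.52 ± 0.23 (SD, n = 6) at birth and 3.46 ± 0.47 (SD, n = 9) in the post-natal animals. All 9 post-natal animals, each averaged over its ages, were above all fetuses and all newborns. At 3 months alone the range was 1.37 to 2.69, which overlapped that at birth, 1.14 to 1.83. The change from prenatal to post-natal was 9.40 (two-sided exact permutation test over animals, p = 3.4e-06, the smallest p that 293930 arrangements allow). From birth to post-natal it was 1.94 (two-sided exact permutation test, p = 2e-04, the smallest that 5005 arrangements allow). Without the animal that stood apart these changes were 9.70 and 1.93.

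The difference moved toward epsilon from 135 days to 25 months. The means were -6.75 at 60 days, -6.43 at 135 days (-7.41 without the animal that stood apart), -5.12 at 195 days, 1.52 at birth and 1.93 at 3 months. The step from 60 to 135 days thus changes sign with that animal. They were 3.10 at 7 months, 3.28 at 12 months, 3.54 at 20 months, 4.50 at 25 months and 4.46 at 30 months. The single prenatal animal far from the rest was the 135-day fetus that stood apart, at -2.51 against -7.68 to -7.14 in the other 4. In the Belmont Red cattle the means were 4.40, 3.65 and 3.61 at diet times 0, 1 and 2, and all of these animals were above all newborns. At time 0 CHRNG was well above background in 1 of 4 channels per diet. Each diet time also had its own slide, so the change over these times is not read.

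**Figure D2:**
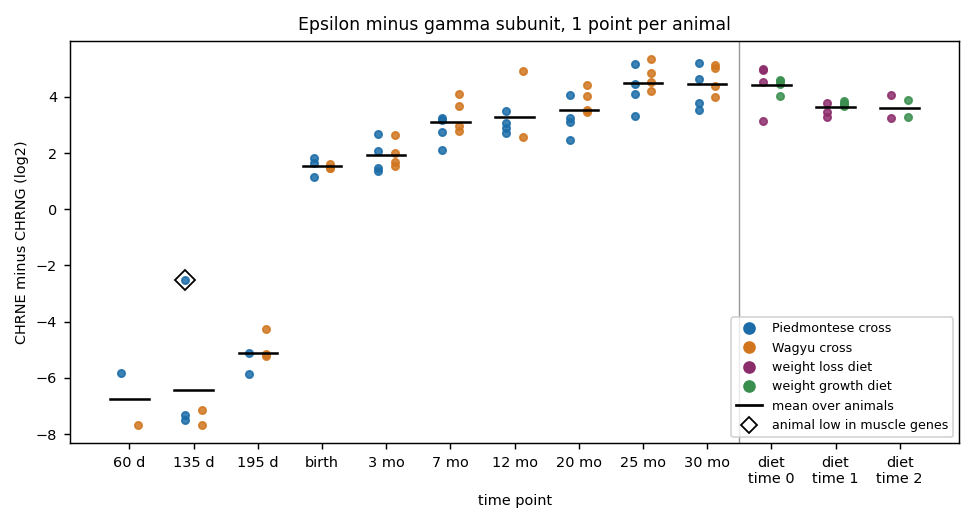
CHRNE minus CHRNG in log2 units (y axis) for each animal at the developmental time points and the diet times (x axis), coloured by cross or diet, with a bar at the mean over animals. All fetuses lie below all later animals, and the mean goes from -5.12 at 195 days to 1.52 at birth.

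CHRND, which encodes the delta subunit, followed gamma rather than epsilon. Its log2 levels were 12.10 and 12.99 at 60 days. At 135 days they were 12.52, 13.35, 12.70 and 13.23, and 7.88 in the animal that stood apart. At 195 days they were 13.71, 13.80, 13.50, 13.64 and 14.07, above every other sample. The lowest, median and highest were 9.16, 10.11 and 10.80 at birth and 8.35, 8.94 and 9.18 over the post-natal animals. Apart from that animal, which was below the newborns, every fetus was above every newborn. The newborn range and that of the post-natal means over ages overlapped narrowly, with the lowest newborn at 9.16 and the highest post-natal mean at 9.18. Single ages overlapped more, as at 12 months, where the range was 8.98 to 10.50.

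From prenatal to post-natal CHRND fell by 3.92 (SE 0.53, limma, adjusted p = 7.22e-07), or 15.2-fold, and without the animal that stood apart the change was -4.36. Before birth it rose by 1.76 from 135 to 195 days (adjusted p = 0.00244), a rise of 0.76 without that animal (adjusted p = 0.0213), and with the slide as a block the rise of 1.65 did not pass (adjusted p = 0.0779). From 195 days to birth it fell by 3.65 (SE 0.43, adjusted p = 8.84e-11), with -4.07 to -3.39 within the 3 slides. From birth to 3 months it fell by a further 1.43 (adjusted p = 0.00163), where 2 members passed against 50.4% of all genes.

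In the post-natal animals CHRND was highest at 12 months. The lowest, median and highest were 8.71, 9.04 and 9.32 at 7 months, 8.98, 9.66 and 10.50 at 12 months and 7.82, 8.64 and 9.45 at 20 months. All 5 animals sampled at both 7 and 12 months were higher at 12, by 0.25 to 1.21, and the mean rise of 0.71 did not pass the threshold (adjusted p = 0.124). It passed without the animal that stood apart (0.72, adjusted p = 0.0028) and with the slide as a block (adjusted p = 0.00308). No member passed at this step in limma, against 17.9% of all genes, while 4228 genes had an unadjusted p under 0.05. All 6 animals sampled at both 12 and 20 months were then lower, and the fall of 1.13 passed (adjusted p = 0.00978), though not under median centring (-1.02, adjusted p = 0.521) or without the animal as a block (adjusted p = 0.0567).

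CHRNA1, which encodes the alpha 1 subunit, was measured at similar levels before and after birth. The lowest, median and highest were 9.01, 11.85 and 12.76 in the prenatal animals, 11.55, 12.07 and 12.76 at birth and 10.996, 11.37 and 11.93 in the post-natal animals. The 3 ranges overlapped. The prenatal to post-natal difference was -0.24 (SE 0.30, limma, adjusted p = 0.481), and without the animal that stood apart CHRNA1 fell by 0.48 (SE 0.16, adjusted p = 0.0112). Without that animal it was thus past the threshold, at a change much smaller than those of delta, epsilon and gamma.

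Among neighbouring time points CHRNA1 passed at 2 steps. From 60 days, at 12.27 and 12.76, to 135 days, at 11.46, 11.72, 11.90 and 11.96 and at 9.01 in the animal that stood apart, it fell by 1.29 (adjusted p = 0.0161). All 135-day fetuses were below both 60-day fetuses. It was the single member past the threshold at this step, against 16.5% of all genes, and without the animal that stood apart the fall was 0.74 on the log2 scale and did not pass (adjusted p = 0.0654). The call was also lost under median centring (adjusted p = 0.291) and with the slide as a block (adjusted p = 0.125). From birth to 3 months CHRNA1 fell by 0.77 on the log2 scale (adjusted p = 0.01), a call lost without the second array at birth (-0.58, adjusted p = 0.101). From 3 to 7 months it was higher in 6 of 7 animals (0.48, adjusted p = 0.0755), and this passed without the animal that stood apart (adjusted p = 0.0138).

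CHRNB1, which encodes the structural beta 1 subunit, had the narrowest range over development, 11.7-fold with the animal that stood apart and 3.00-fold without it. The lowest, median and highest were 8.65, 12.06 and 12.20 in the prenatal animals, 10.68, 11.59 and 11.71 at birth and 11.55, 11.64 and 11.81 in the post-natal animals. The stages overlapped, and the prenatal to post-natal difference was 0.10 (SE 0.33, limma, adjusted p = 0.793) and -0.16 without the animal that stood apart (adjusted p = 0.396). Apart from that animal, CHRNB1 was lowest within fetal life at 60 days, at 10.62 and 11.05. At 135 days it was at 12.05, 12.11, 12.11 and 11.78, and at 8.65 in the animal that stood apart. The step from 60 to 135 days was 0.53 (adjusted p = 0.431), and without the animal that stood apart CHRNB1 rose by 1.19 (SE 0.22, adjusted p = 2.26e-05).

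From 195 days to birth CHRNB1 fell by 0.63 (SE 0.28, adjusted p = 0.0459), with -0.87 to -0.49 within the 3 slides. The 195-day levels were 12.20, 12.14, 12.16, 12.06 and 11.69, and the highest of the 6 newborns was at 11.71, so that 1 fetus lay within the newborn range. This call was lost in 6 of 11 alternative settings. It was also lost on leaving out array 1 or 2 at 195 days, array 2 or 3 at birth, array 3 at 12 months or array 4 at 20 months, with values from -0.70 to -0.53 and adjusted p from 0.0502 to 0.134.

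The order of the levels over the 10 time points separated few neighbours. For CHRNG the time points before birth ranked above all others, and the animals' ranges overlapped in 8 of the 9 pairs of neighbours in that order, the exception being 195 days above birth. For CHRNE the time points before birth ranked lowest, and birth above 195 days was the exception among 9 pairs. For CHRND the exception was 195 days above 60 days. Without the animal that stood apart the ranges overlapped in 7 of the 9 pairs for CHRNG, with 60 days also separate from 195 days. They overlapped in 7 of the 9 pairs for CHRND too, with 195 days separate from 135 days and 60 days from birth, and the counts of the other 3 subunits were as before. For CHRNA1, highest at 60 days, and CHRNB1, highest at 195 days, the ranges overlapped in all 9 pairs.

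No subunit passed the threshold between the Piedmontese and the Wagyu cross. The comparison was made over animals before birth, at birth and after birth, and 0% of all genes passed before birth, 0.00717% at birth and 0% after it. In limma 626, 903 and 684 genes had an unadjusted p under 0.05. The lowest unadjusted p among the members was that of CHRNE after birth, with the Piedmontese cross lower by a log2 difference of -0.48 (SE 0.21, adjusted p = 1). In a fit of the differences between the 2 channels of each array, with the array as replicate block, that difference was -0.46 and passed (adjusted p = 0.0165). In that fit the channels of an animal sampled at several ages counted separately. Before birth CHRND and CHRNG had the widest differences, of -0.86 and -0.74, and without the animal that stood apart these values shrank to -0.12 and -0.02.

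In the diet experiment no subunit passed the threshold between the diets at time 0. CHRND was at 8.94, 8.23, 8.95 and 8.51 in the loss animals and at 7.87, 7.54, 8.52 and 7.54 in the growth animals, a difference of 0.79 (limma, adjusted p = 0.164). The groups overlapped. At this time 4.06% of all genes passed, and 2558 genes had an unadjusted p under 0.05.

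At time 1 CHRND was higher in all loss animals than in all growth animals. Its log2 levels were 10.99, 10.95 and 10.32 on the loss diet and 7.94, 8.70, 8.77 and 7.47 on the growth diet. The difference was 2.55 (SE 0.33, limma, adjusted p = 0.000151), or 5.86-fold. CHRNE was lower, at 11.17, 10.30 and 10.98 on the loss diet against 12.29, 12.08, 11.86 and 11.86 on the growth diet. The groups did not overlap. The difference was -1.21 (SE 0.27, adjusted p = 0.00582), and it missed the threshold under median centring (-0.91, adjusted p = 0.0507) and without the first array of time 1 (-1.02, adjusted p = 0.0707).

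CHRNG was also lower on the loss diet at time 1, at 7.38, 7.01 and 7.52 against 8.53, 8.40, 8.16 and 8.01. All 4 loss channels were well above background. Their mean of 7.30 was near that of time 0, 7.21, where 1 of 4 was. The diets did not overlap, and the difference was -0.98 (SE 0.18, limma, adjusted p = 0.00156). Over the alternative settings it ranged from -1.58 to -0.78. The -1.58 came with the deposited log ratios (adjusted p = 0.0103). There each of the 4 arrays counted as a replicate, although they held 3 loss animals. CHRNB1, at 12.34, 12.25 and 12.47 against 11.60, 11.92, 11.71 and 11.55, did not overlap either, and its difference of 0.65 (SE 0.23) was just short of the threshold (adjusted p = 0.0506), which it passed under median centring (0.99, adjusted p = 0.00753). CHRNA1 overlapped between diets, with a difference of 0.03 (adjusted p = 0.973). In all 3 of the 5 members passed at time 1, against 21.0% of all genes.

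Markers of other cells also differed between the diets at time 1. Of the 7 muscle fibre markers 5 were lower and 1 was higher on the loss diet, with ACTA1 lower by -6.16 and desmin (DES) higher by 1.36, and the mean level of the list was 14.22 to 14.47 on the loss diet and 15.56 to 16.64 on the growth diet. Of the 5 fibroblast markers 3 were lower, with mean levels of 9.42 to 10.06 against 11.60 to 12.56, and 3 of the 5 endothelial markers were lower. Of the 3 embryonic muscle markers 1 was lower, with mean levels of 8.29 to 8.74 against 8.86 to 9.56. Of the 6 Schwann cell and nerve markers 1, S100B, was lower (-0.82), and no adipocyte marker (0 of 4) and no blood or immune marker (0 of 5) passed. The part of these differences in the receptor values was not tested.

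Animals were also compared between times 0 and 1, which lay on different slides. The changes within a diet that follow cannot be told apart from slides, whereas their difference between the diets can. In the loss animals CHRND rose by 2.06, 2.72 and 1.82, a mean change of 2.12 (adjusted p = 0.00124), while in the growth animals it changed by -0.07 to 1.16. The 4 growth animals did not pass as a group (0.35, adjusted p = 0.497). On the loss diet 2 members passed between times 0 and 1, against 16.0% of all genes, the other being CHRNE, which was lower in all 3 animals (-0.79, adjusted p = 0.0431). The CHRNE call was lost when any 1 of 6 arrays was left out, arrays 2, 3 and 4 of time 0 and arrays 1, 2 and 4 of time 1, with values of -0.83 to -0.61 and adjusted p from 0.0516 to 0.230. It was also lost under median centring (adjusted p = 0.186), with the dye effect kept (0.0585), without a filter (0.0697) and without the animal as a block (0.0978). On the growth diet only CHRNG passed, against 4.43% of all genes. It rose by 0.79 to 1.38 in the 4 animals, a mean of 1.07 (limma, adjusted p = 0.00395). On the loss diet CHRNG changed by -0.55 to 0.32 in the 3 animals, and the fitted change of 0.08 did not pass (limma, adjusted p = 0.758). At time 0 CHRNG was well above background in 1 of 4 channels per diet, so the size of the rise on the growth diet depends on the background correction. That rise was 1.82 with plain background subtraction.

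The change from time 0 to 1 differed between diets for 4 of the 5 members, against 12.8% of all genes. The difference, loss minus growth, was 1.76 for CHRND (SE 0.41, limma, adjusted p = 0.0123), -0.99 for CHRNG (SE 0.22, adjusted p = 0.0115), -1.20 for CHRNE (SE 0.34, adjusted p = 0.0311) and 0.93 for CHRNB1 (SE 0.28, adjusted p = 0.0422). With CHRND the direction was the same in every setting tried, and its call was lost only with the deposited log ratios (1.68, adjusted p = 0.07). The CHRNG difference includes the time 0 levels, at which 1 of 4 channels per diet was well above background. Its call was lost without the first array of time 1 (-0.75, adjusted p = 0.0813), under median centring (-0.89, adjusted p = 0.101) and with the deposited log ratios (adjusted p = 0.0607). The CHRNE call was lost without array 2 or 4 of time 0 or array 1, 3 or 4 of time 1 (-1.29 to -0.95, adjusted p from 0.0587 to 0.155). The CHRNB1 call was lost without any of the first 3 arrays of time 0 or any of the 4 arrays of time 1 (0.71 to 1.01, adjusted p from 0.0515 to 0.148).

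By time 2 the diets no longer differed past the threshold. CHRND was at 9.44 and 8.51 in the 2 loss animals and at 8.87 and 8.69 in the 2 growth animals, which overlapped. Only CHRNG did not overlap, at 7.28 to 7.31 on the loss and 7.46 to 8.02 on the growth diet. Its difference was -0.44 (limma, unadjusted p = 0.0738). With 2 animals per diet, the lack of a call does not show that a difference had ended. No member and 0% of all genes passed between diets at time 2, where limma gave 223 genes with an unadjusted p under 0.05. From time 1 to 2, again on different slides, the 2 loss animals changed in CHRND by -1.55 and -2.44. The fitted change of -1.81 passed (SE 0.36, limma, adjusted p = 0.0103), and CHRND was the single member, against 4.98% of all genes. On the growth diet no member passed, against 0% of all genes (1348 with an unadjusted p under 0.05). The difference between the diets in this change was -2.27 for CHRND (SE 0.50, adjusted p = 0.0269), again the single member, against 2.76% of all genes. Without the first array of time 1 both CHRND calls were lost (-1.65, adjusted p = 0.0515, and -2.31, adjusted p = 0.0796).

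**Figure D3:**
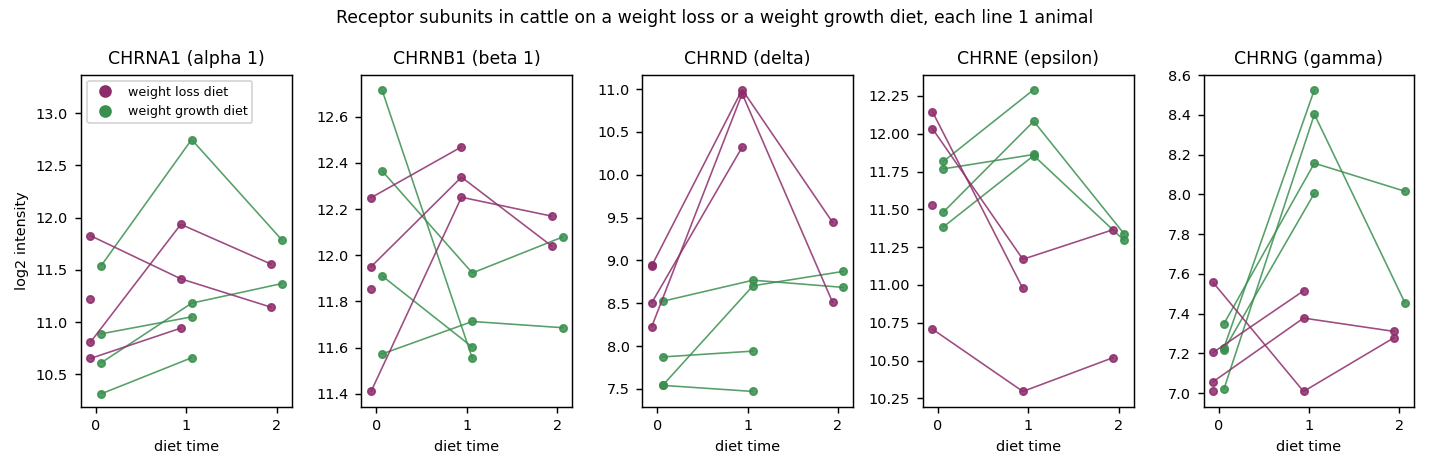
Log2 normalized intensity of each subunit (y axes, each with its own scale) at diet times 0, 1 and 2 (x axis), 1 line per Belmont Red animal, coloured by diet. At time 1 the 3 loss animals lie above the 4 growth animals for CHRND (10.32 to 10.99 against 7.47 to 8.77) and below them for CHRNE and CHRNG.

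Genes that cluster the receptor or signal at the endplate were described beside the subunits. Of 28 listed genes 24 were tested. From prenatal to post-natal 7 of them were higher, 11 lower and 6 did not pass, with a median log2 change of -0.25, beside 5501 genes higher, 5090 lower and a median of 0.03 over all genes tested. Among those that rose was SNTB1, a syntrophin of the dystrophin complex, by 1.23 (adjusted p = 3.08e-05). DNAJA3, a chaperone that binds MUSK, rose by 1.35 and CRKL, an adaptor downstream of DOK7, by 1.29. SNTB1 went from a median of 11.55 in the fetuses to 13.06 at birth and 12.71 after birth.

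The largest fall in the list was that of ERBB3, a neuregulin receptor, with a log2 change of -4.86 (SE 0.40, adjusted p = 3.23e-10). Its lowest, median and highest levels were 10.77, 13.42 and 14.63 before birth and 9.06, 9.45 and 9.57 at birth. After birth, with each animal averaged over its ages, they were 8.27, 8.40 and 8.48, and these stages did not overlap. The lowest level before birth was that of the animal that stood apart. AGRN, which encodes agrin, a clustering signal in its nerve-derived form, fell by 2.42 (limma, adjusted p = 2.08e-10). Which cells of the whole muscle gave this RNA, and in which form, was not tested. UTRN, encoding utrophin, fell by 1.31, and NCAM1, an adhesion molecule, fell by 1.20. NCAM1 was near background at birth (6.81 to 7.01) and after it (7.11 to 7.42), which may limit the size of its fall.

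Between the diets at time 1, 3 endplate genes were higher on the loss diet and 4 lower, with a median of -0.05 over the 24 (all genes: 1512 higher, 1416 lower, median 0.00). RAPSN, which encodes rapsyn, the scaffold that holds receptors in clusters, was at 12.07 to 12.84 on the loss diet and 10.51 to 11.84 on the growth diet, a difference of 1.23 (SE 0.31, adjusted p = 0.0117). CTTN (cortactin) differed by 0.78 and GABPA, a factor that binds the promoter element of synaptic genes, by 0.52, while SNTB1 differed by -0.74 and DAG1 (dystroglycan) by -0.55. For DAG1 the difference was also past the threshold at time 0 (-0.71, adjusted p = 0.0291).

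On the loss diet RAPSN rose by 1.56 from time 0 to 1, between different slides (limma, adjusted p = 0.00345). At this step 4 endplate genes rose while the other 20 did not pass, against 16.0% of all genes. The difference between the diets in this change passed for GABPA (0.72), MUSK, the kinase that receives the agrin signal (0.71), CTTN (0.70) and SNTB1 (-0.92), but not for RAPSN (0.93, adjusted p = 0.131).

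**Figure D4:**
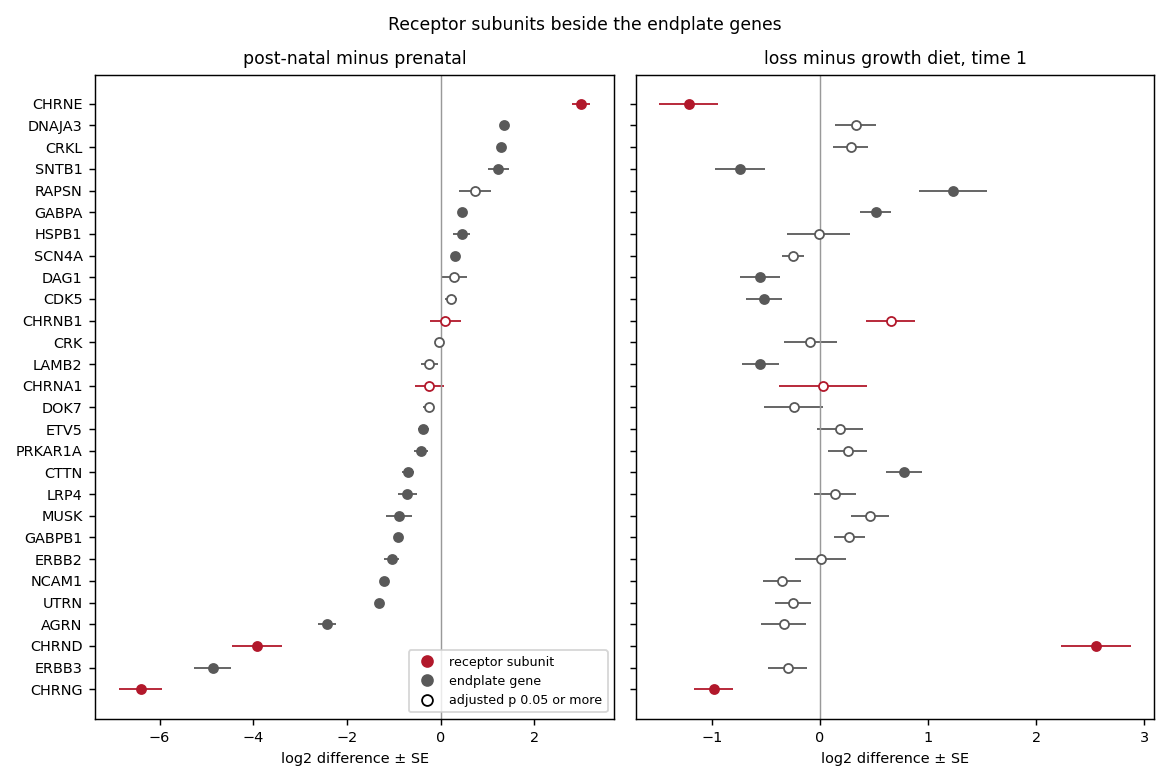
Log2 difference with its standard error (x axes) of the 5 subunits (red) and 23 of the 24 endplate genes tested (grey), sorted by the prenatal to post-natal change, for post-natal minus prenatal (left) and loss minus growth at diet time 1 (right), with open symbols where the adjusted p was 0.05 or more. CHRNG (-6.40) and CHRND (-3.92) lie at the left end beside ERBB3 on the left side, while CHRND (2.55) lies apart from all others on the right side.

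Myogenic and activity-linked regulators of receptor genes were likewise mixed. Of 16 listed 14 were tested, and from prenatal to post-natal 6 were higher and 4 lower, with a median of 0.00. In this comparison 75.9% of all genes passed. MYF6, a myogenic factor, rose by 2.24, and MYOG (myogenin) fell by 1.53, with the animal that stood apart included. These genes and those of the next sentence were picked from the list after their values were seen. At diet time 1 MYF6 was higher on the loss diet by 0.74 (adjusted p = 0.0385), having been lower by -0.89 at time 0 (adjusted p = 0.0336), and the change from time 0 to 1 differed between diets by 1.63 (adjusted p = 0.00427). Over the list 1 gene was higher and 2 were lower at time 1, against 21.0% of all genes.

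Receptor subunits of neurons, which are not part of the endplate receptor, showed small differences, and most of those tested were near background. Of 11 listed 4 passed the detection filter, and from prenatal to post-natal CHRNA10 was higher by 0.47 (adjusted p = 0.00618) and CHRNA3 lower by -0.21 (adjusted p = 0.00809), with a median of -0.07. From prenatal to post-natal 75.9% of all genes passed. Between the diets at time 1 the 4 had a median of 0.06 and did not pass.

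Over the 20 developmental conditions (10 time points in each cross), the genes whose means correlated best with CHRNG were PTPRD (Pearson r = 0.993), MBOAT2 (0.992) and ERBB3 (0.991). For CHRNE they were CLDN25 (0.980), ARPP19 (0.971) and AMACR (0.970). Among the members CHRND and CHRNG had r = 0.92, CHRNE and CHRNG -0.92, and CHRND and CHRNE -0.89, while no pair with CHRNA1 or CHRNB1 was beyond 0.52 in size. These values are descriptions, since the conditions share animals, slides and the change over birth.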

How the data were processed

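RNA of whole LTL biopsies was hybridised to 48 2-colour Agilent arrays. The authors scanned them and extracted, per the submitters' processing notes with Agilent Feature Extraction 9.5.1, spot intensity and local background for Cy3 and Cy5, and deposited a log10 ratio of Cy5 over Cy3 per spot after spatial detrending and dye normalization. The deposited series table held the same log10 ratios (0 spots differed by more than 1e-06). A genome build for the probes is not given in the sources used here.

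From the mean and background intensities, the background was corrected in limma 3.58.1 (R 4.3.3) by normexp with an offset of 50, followed by loess within arrays and Aquantile between arrays, and log2 values were taken. The log2 scale was set here and is not that of the authors' deposited values. Control spots were left out, spots of a probe and probes of a gene were averaged, and genes well above background in at least 24 of 96 channels were kept. Each gene's mean difference between the dyes was taken out, and channels of an animal at 1 time were averaged.

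Animals were the replicates. Prenatal against post-natal, and the crosses, were tested in limma on 1 value per animal. Neighbouring time points and the diets were fitted with the animal as a random block, its identity taken from the animal codes in the labels (consensus correlation 0.321 in development and 0.163 in the diet experiment). P-values were adjusted by Benjamini-Hochberg over all 13945 genes within a comparison, and an adjusted p under 0.05 was called past the threshold. The epsilon minus gamma value was tested by exact permutation over animals. The tests were tested on simulated data. Alternatives were plain background subtraction, median centring of each channel, quantile normalization, dye effect kept, no filter or a filter of 48 channels, the brightest probe, 2 similar animal codes as 1 animal, slide block, no animal block, array block, the deposited log ratios and each array left out.

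The named endplate genes were the 4 largest rises and 4 largest falls from prenatal to post-natal and up to 6 past the threshold in a diet comparison (some genes of the lists count in the totals but are not reported here by name), and the genes most like CHRNG and CHRNE were the 3 with the highest correlation. The members and lists were chosen with earlier results of these data known. RefSeq assembly ARS-UCD2.0 was used for gene neighbours only.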

Additional observations from a re-analysis of the deposited data

Results flagged for a closer look

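Among the 60 groups of 4 to 8 animals examined, 6 had a value far from the others, and chance gives about 1 in 20 groups. Of these, 4 came from the Piedmontese-cross fetus at 135 days that was low in muscle markers, which had the lowest CHRNA1 (9.01), CHRNB1 (8.65), CHRND (7.88) and CHRNG (10.66) of its age. The others were CHRNB1 at 195 days, where a Wagyu-cross fetus was at 11.69, and CHRNG at 3 months, where a Piedmontese-cross animal was at 8.05.

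The change from diet time 0 to 1 differed between the diets by an interaction term for CHRND (1.76), CHRNB1 (0.93), CHRNG (-0.99) and CHRNE (-1.20), each loss minus growth on the log2 scale. The change from time 1 to 2 differed for CHRND (-2.27). For the change from time 0 to 1, the difference between diets was past the threshold and negative for 4 of 7 muscle fibre markers, and positive for 1. The part of that difference in the receptor values was not tested.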

How the results depend on the processing

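The falls of CHRNG and CHRND and the rise of CHRNE over birth, and the epsilon minus gamma change, kept their direction and their side of the threshold in every setting tried. Under median centring the calls of the 5 members, summed over the 9 steps between neighbouring time points, were 8 in place of 14, and CHRNE turned, to -0.18 from 20 to 25 and to 0.53 from 25 to 30 months. Median centring also gave -0.43 for CHRNB1 from 195 days to birth, -0.91 for CHRNE between diets at time 1, and differences in the 0 to 1 change of -0.87 (CHRNE) and -0.89 (CHRNG), none past the threshold. It moved the median of all genes by -0.315 and 0.526 at the last 2 steps and by 0.107 to 0.148 in the diet comparisons at time 1. CHRNB1 from 195 days to birth lost its call at -0.65 (plain subtraction), -0.61 (quantile), -0.63 (no filter), -0.56 (similar codes as 1 animal) and -0.64 (slide block). The difference between diets in the 0 to 1 change lost its call for CHRNB1 at 0.95 (plain subtraction), 0.93 (no filter) and 0.93 (no animal block), and for CHRNE at -1.20 (no filter) and -1.20 (no animal block). With the deposited log ratios it was 0.94 for CHRNB1, 1.68 for CHRND, -1.12 for CHRNE and -1.64 for CHRNG, none past the threshold, and 4 diet calls were left of the 8 that could be set against them.

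With the array as replicate block, which pairs the samples of an array, 1 member passed between crosses in place of 0, and the difference in the 0 to 1 change was 0.93 for CHRNB1 and -1.11 for CHRNE, neither past the threshold. The block left 6 diet calls of 8 comparable ones. In this fit and in that of the deposited log ratios arrays were the replicates, so animals on several arrays counted more than once.

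Leaving out each array gave 3 to 4 calls between prenatal and post-natal, 12 to 20 between time points, 0 to 0 between crosses and 5 to 13 in the diet experiment. The 5 came without the first array of diet time 1. The ranges from prenatal to post-natal were -6.76 to -6.17 (CHRNG), 2.90 to 3.10 (CHRNE) and -4.37 to -3.69 (CHRND). From 195 days to birth they were -5.20 to -4.96 (CHRNG), 1.54 to 1.69 (CHRNE), -3.81 to -3.47 (CHRND) and -0.72 to -0.53 (CHRNB1). The epsilon minus gamma change ran from 9.07 to 9.72, and from 1.83 to 2.04 after birth. Between diets at time 1 they were 2.30 to 2.92 (CHRND), -1.30 to -1.02 (CHRNE) and -1.16 to -0.75 (CHRNG). For the difference in the 0 to 1 change they were 1.51 to 2.14 (CHRND), -1.43 to -0.95 (CHRNE), -1.16 to -0.75 (CHRNG) and 0.71 to 1.25 (CHRNB1), and for 1 to 2 -2.64 to -2.06 (CHRND). The settings without the 135-day animal were chosen after seeing the data. The causes of these changes were not tested. The change of CHRNG from prenatal to post-natal was -7.08 with plain background subtraction, and the arrays have no read depth.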
